A study of Homo sapiens with 8 samples.

Results

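The host genes of small nucleolar RNAs (snoRNAs) described here are 9 long non-coding genes, GAS5, SNHG1, SNHG5, SNHG6, SNHG7, SNHG8, SNHG12, SNHG15 and ZFAS1, out of 16320 genes tested. They were picked by name, with earlier results of these data known, as the gene rows that carry these symbols in the count tables. All 9 were found once, had counts in every library and passed the filter on low counts. RNA came from SupB15, an established human line of Philadelphia chromosome-positive pre-B acute lymphoblastic leukemia. There were 2 independent samples in each of 4 groups. The 1035+Doxo cells had 2 µM of the compound 1035 for 36 h and then 0.1 µM doxorubicin for 10 h, and the 1035 cells had 2 µM 1035 for 46 h. The Doxo cells had 0.1 µM doxorubicin for 10 h and the DMSO cells had the solvent for 46 h. The compound is known here by its code name, and the title of the study calls it an inhibitor of histone deacetylases, the enzymes that take acetyl groups off histones. Doxorubicin, an anthracycline used in leukemia, stalls topoisomerase II on cut DNA. All groups share a single cell line. The Doxo cells had 10 h of treatment where the DMSO cells had 46 h, so the drug and the time of handling cannot be told apart in that comparison. The same limit holds for 1035 in 1035+Doxo against Doxo. The sources used here do not say if 1035 was washed out before doxorubicin was added.

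SnoRNAs guide the chemical modification of ribosomal RNA: those of the C/D box class direct ribose methylation and those of the H/ACA class direct conversion of uridine to pseudouridine. Most human snoRNAs are cut out of introns of a host transcript. Many hosts carry a 5′ terminal oligopyrimidine (TOP) start, that is, a first C followed by a run of C and T, which ties their translation to growth signals, and the spliced RNA of several non-coding hosts is degraded by nonsense-mediated decay (NMD) when ribosomes run over its short reading frames. GAS5 is the textbook example, named for its build-up in growth-arrested cells.

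The start sites of the hosts are shown so that this TOP run and a TATA box can be looked for in them. The RefSeq promoter table (GRCh38.p14) held 7 of the 9 genes, without SNHG6 and SNHG15. Each line gives 40 bases before and 20 bases from the annotated start, 5′ to 3′ on the strand of the gene, and capitals mark the run of C and T that begins at a first transcribed C. The GAS5 stretch lies at chr1:173869026-173869085 on the minus strand, SNHG1 at chr11:62855866-62855925 (minus), SNHG5 at chr6:85678714-85678773 (minus), SNHG7 at chr9:136728165-136728224 (minus), SNHG8 at chr4:118278722-118278781 (plus), SNHG12 at chr1:28581854-28581913 (minus) and ZFAS1 at chr20:49278602-49278661 (plus).
GAS5: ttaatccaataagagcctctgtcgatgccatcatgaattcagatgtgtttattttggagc
SNHG1: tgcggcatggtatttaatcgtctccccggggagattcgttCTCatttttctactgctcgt
SNHG5: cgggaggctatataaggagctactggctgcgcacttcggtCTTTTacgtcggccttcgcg
SNHG7: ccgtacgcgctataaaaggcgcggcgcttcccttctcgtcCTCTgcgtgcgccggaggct
SNHG8: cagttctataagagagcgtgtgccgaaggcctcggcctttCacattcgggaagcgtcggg
SNHG12: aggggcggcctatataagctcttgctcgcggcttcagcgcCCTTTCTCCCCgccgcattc
ZFAS1: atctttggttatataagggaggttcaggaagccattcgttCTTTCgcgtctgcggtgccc

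Transcription was annotated to begin at a C in 6 of the 7 hosts (85.7%), against 14.7% of all 35116 promoters in the table, and GAS5 was annotated to begin at an A. A run of at least 5 C or T from that first C stood in SNHG5, SNHG12 and ZFAS1 (42.9%, against 4.07% of all promoters). The longest, in SNHG12, had 11 bases. The letters TATAA, searched on the strand of the gene between 40 and 16 bases before the start, were found in SNHG5, SNHG7, SNHG8, SNHG12 and ZFAS1 (71.4%, against 3.91%). Their first T lay 28 bases before the start in SNHG12 and 34 in SNHG8. The palindrome CACGTG, the E-box that MYC binds, was found within the whole 300 bases of SNHG7 alone (14.3%, against 7.26%). TATAA was found in 11.1% of the promoters of 54 protein-coding snoRNA hosts and in 12.8% of those of 47 other ribosomal protein genes, and a first C followed by at least 4 C or T in 38.9% and 59.6%. Among the promoters of 14 other non-coding snoRNA hosts, 7.14% held TATAA, 21.4% began at a C and 21.4% held that run. These are matches of letters at annotated starts and not measured sites.

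**Figure D1:**
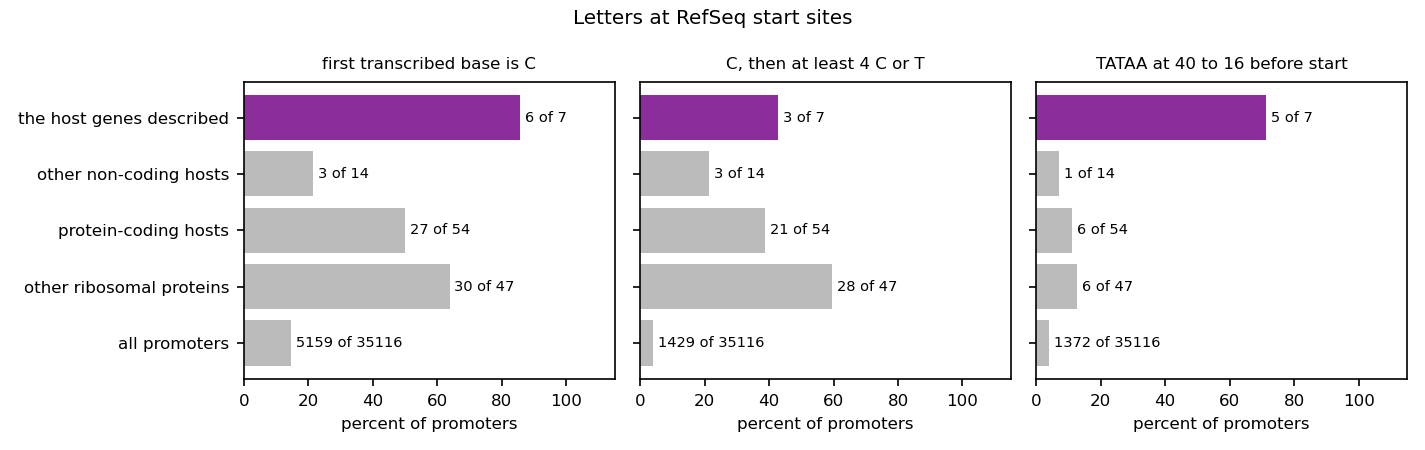
Percent of RefSeq promoters with a first transcribed C, with a C followed by at least 4 C or T, and with TATAA between 40 and 16 bases before the start. Bars are the 7 host genes described and, for comparison, other non-coding hosts, protein-coding hosts, other ribosomal protein genes and all promoters, with the number of promoters beside each bar; 5 of 7 hosts held TATAA, against 3.91% of all promoters.

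Depth was 12934237 and 11760542 counted reads in 1035+Doxo, 13725592 and 12055472 in 1035, 18144670 and 12398192 in Doxo, and 16217438 and 15570301 in DMSO. Markers matched the labelled cell type: all 10 B-lineage markers were tested, with summed levels of 2943 to 3134 CPM (counts scaled to library size, TMM-normalised) in the 4 libraries given 1035 and 3981 to 4306 in the 4 others. They did not move together: in 1035 against DMSO 6 were lower and 3 higher (edgeR, FDR 0.05). IGLL1, a part of the pre-B cell receptor, averaged 244 CPM in 1035 and 851 CPM in DMSO (-1.80), and DNTT was at -0.88, while CD22 averaged 259 CPM in 1035 and 149 CPM in DMSO (0.80), CD79A was at 0.43 and CD79B at 0.31. None of 6 T cell or 4 erythroid markers had a tested row. Myeloid markers (4 of 6 tested) summed to 32.2 to 38.2 CPM with 1035 and 20.7 to 23.8 without. They were split too: in 1035 against DMSO 3 were called higher (MPO at 0.99, CSF1R at 0.55 and ITGAM at 1.09) and 1 lower (LYZ at -0.56). ITGAM averaged only 1.77 CPM in 1035 and 0.81 CPM in DMSO, and its groups overlapped. Of the stromal markers COL1A1 alone was tested, at 1.14 to 2.89 CPM with 1035 and 0.127 to 0.485 without. The part of these shifts in the host gene values was not tested, and in bulk RNA fewer cells of a kind and less RNA per cell cannot be told apart.

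The hosts were well expressed. On a scale that divides CPM by the gene length used by the authors (FPKM), SNHG8 stood at 135 ± 3.03 in DMSO (SD, n = 2), SNHG6 at 121 ± 9.71, GAS5 at 108 ± 0.148 and ZFAS1 at 91.9 ± 5.92. SNHG1 followed at 74.8 ± 0.329 and SNHG5 at 69.1 ± 1.84 FPKM. SNHG12 had 37.5 ± 0.979, SNHG7 23.8 ± 0.267 and SNHG15 21.5 ± 0.359 FPKM. Neighbours in this order did not overlap in the 2 DMSO libraries, and the gaps between SNHG8 and SNHG6 (1.12-fold) and between SNHG1 and SNHG5 (1.08-fold) were small. The host with the lowest level lay above 82.6% of all tested genes and the one with the highest above 98.5%. Together the 9 genes took 0.134 ± 0.00713% of reads in the 4 libraries given 1035 (range 0.126 to 0.144%) and 0.147 ± 0.00728% in the 4 others (0.139 to 0.156%), so the ranges overlapped; this sum over chosen genes was not tested.

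**Figure D2:**
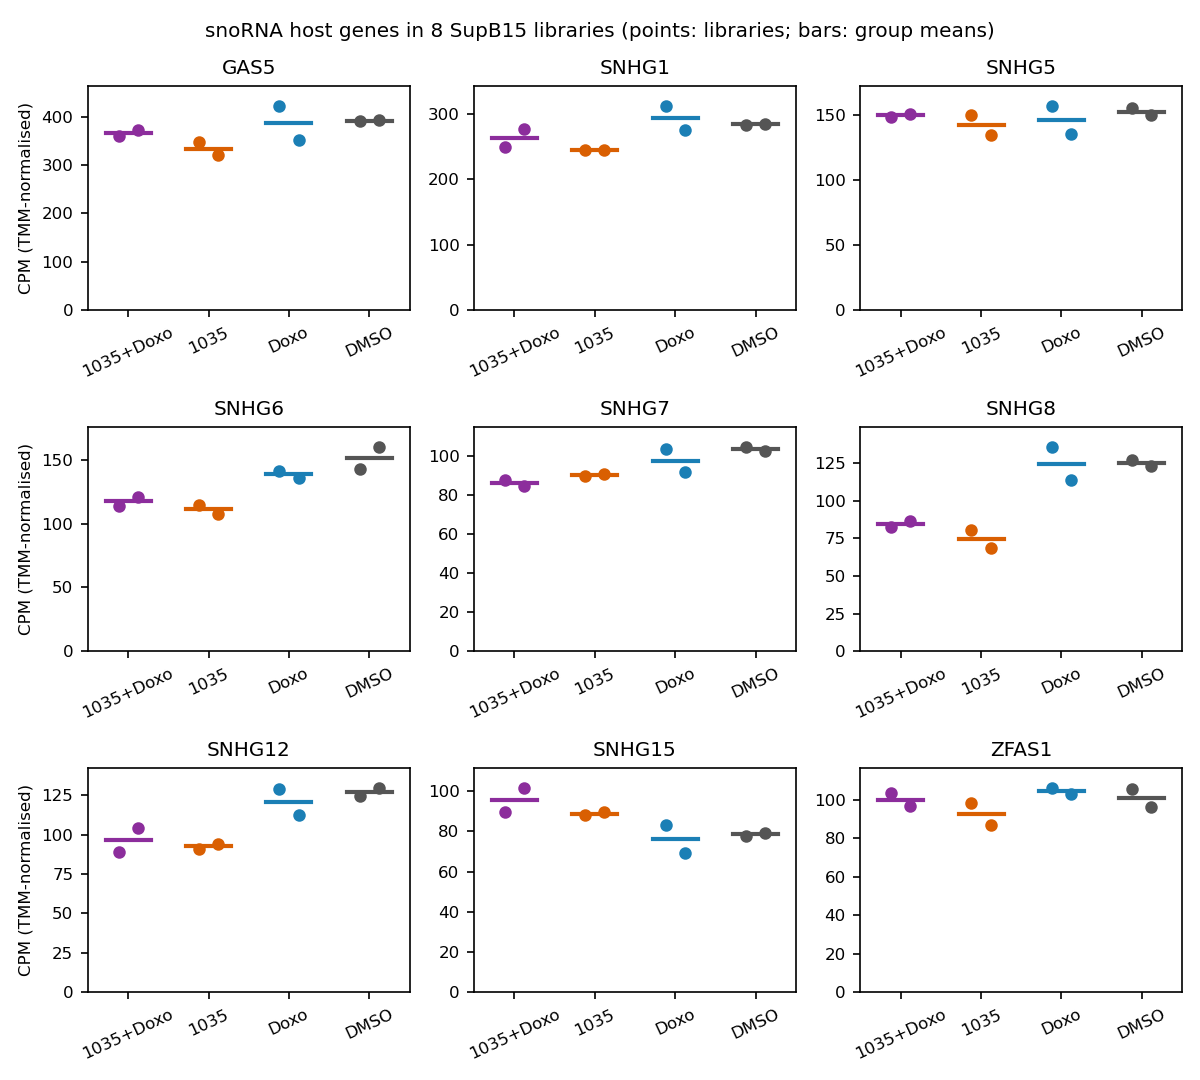
TMM-normalised CPM of the 9 host genes (vertical axes from 0, linear) in 1035+Doxo, 1035, Doxo and DMSO cells; points are libraries and bars group means (n = 2). SNHG6, SNHG7, SNHG8 and SNHG12 were lower in all 4 libraries given 1035 than in the 4 others, SNHG15 was higher, and GAS5, SNHG1, SNHG5 and ZFAS1 overlapped.

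The comparison of 1035 with DMSO asks what the compound alone did to these genes. With 1035, 6 of the 9 hosts fell (SNHG8, SNHG12, SNHG6, GAS5, SNHG1 and SNHG7), SNHG15 rose, and ZFAS1 and SNHG5 did not pass the test (edgeR quasi-likelihood test, Benjamini-Hochberg adjusted over all genes, FDR 0.05). Across all genes 49% were called, 24.8% lower and 24.2% higher, so a call was common; 6 of 9 lower was a larger share than 24.8%, and that difference was not tested. The groups of all 7 called hosts did not overlap, as was so for 73.9% of all genes. The median log2 fold change of the 9 was -0.21, against 0.01 for all genes.

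Among the hosts of a single snoRNA, SNHG8, which carries the H/ACA box snoRNA SNORA24, changed most. It had 80.5 and 68.8 CPM in the 1035 libraries, against 127.0 and 123.0 CPM in the DMSO libraries. Both 1035 libraries lay well below both DMSO libraries, and SNHG8 fell by 40.2% (log2 fold change -0.74 ± 0.08, SE; edgeR adjusted p = 1.13e-08). SNHG6, the host of the C/D box snoRNA SNORD87, had 114.5 and 108.0 CPM with 1035 and 142.9 and 160.0 CPM with DMSO. Its groups did not overlap, and it fell by 26.5% (-0.44 ± 0.06, edgeR adjusted p = 2.12e-07). SNHG15, the host of SNORA9, went the other way, with 88.1 and 89.6 CPM under 1035 and 77.5 and 79.4 CPM under DMSO. The rise was 13.3% (0.18 ± 0.07, edgeR adjusted p = 0.0418) and it rested on all 4 libraries: without any of them the adjusted p lay between 0.0918 and 0.183, at log2 fold changes of 0.16 to 0.20, and with DESeq2 it was 0.129.

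Among the hosts of several snoRNAs, SNHG12, which carries SNORD99 and H/ACA box snoRNAs, had 91.0 and 94.3 CPM in 1035 libraries, against 124.6 and 129.3 CPM in DMSO libraries. The groups were far apart, and SNHG12 fell by 27.1% (-0.46 ± 0.07, edgeR adjusted p = 2.72e-06). GAS5, which carries 11 annotated snoRNAs and whose spliced RNA is known as a decoy for the glucocorticoid receptor, had 347.7 and 320.4 CPM with 1035 and 391.8 and 392.5 CPM with DMSO. It fell by 14.8% (-0.23 ± 0.07, edgeR adjusted p = 0.00385), and without 1035 replicate 2 the adjusted p was 0.0669 at -0.17. SNHG1, described early as a host whose spliced exons have little coding potential, had 245.3 and 244.5 CPM with 1035 and 283.0 and 284.8 CPM with DMSO. Replicates lay close together in both groups, and SNHG1 fell by 13.8% (-0.21 ± 0.06, edgeR adjusted p = 0.00407). SNHG7, which carries the SNORA17 pair, had 89.6 and 90.8 CPM with 1035 and 104.2 and 102.5 CPM with DMSO, and fell by 12.7% (-0.20 ± 0.07, edgeR adjusted p = 0.0112). This call was lost without DMSO replicate 1 (-0.18, adjusted p 0.0912), DMSO replicate 2 (-0.21, 0.0516) or 1035 replicate 1 (-0.19, 0.0608), and under upper quartile scaling (-0.14, 0.0750) or library totals (-0.13, 0.0929).

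ZFAS1, which carries the C/D box snoRNAs SNORD12, SNORD12B and SNORD12C, had 98.5 and 87.2 CPM with 1035 and 105.5 and 96.3 CPM with DMSO. The groups overlapped, and the difference (-0.12, 95% interval -0.25 to 0.01) did not pass (edgeR adjusted p = 0.143), although without 1035 replicate 1 it did (-0.21, adjusted p 0.0320). SNHG5, which carries SNORD50A and SNORD50B and is fused to BCL6 in a lymphoma translocation, had 150.3 and 134.8 CPM with 1035, against 155.5 and 149.7 CPM with DMSO. Its groups overlapped too (-0.10, 95% interval -0.23 to 0.03; edgeR adjusted p = 0.234). SNHG1, SNHG6, SNHG8 and SNHG12 passed under each of 16 alternatives of scaling, filter, test, block and left-out library.

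**Figure D3:**
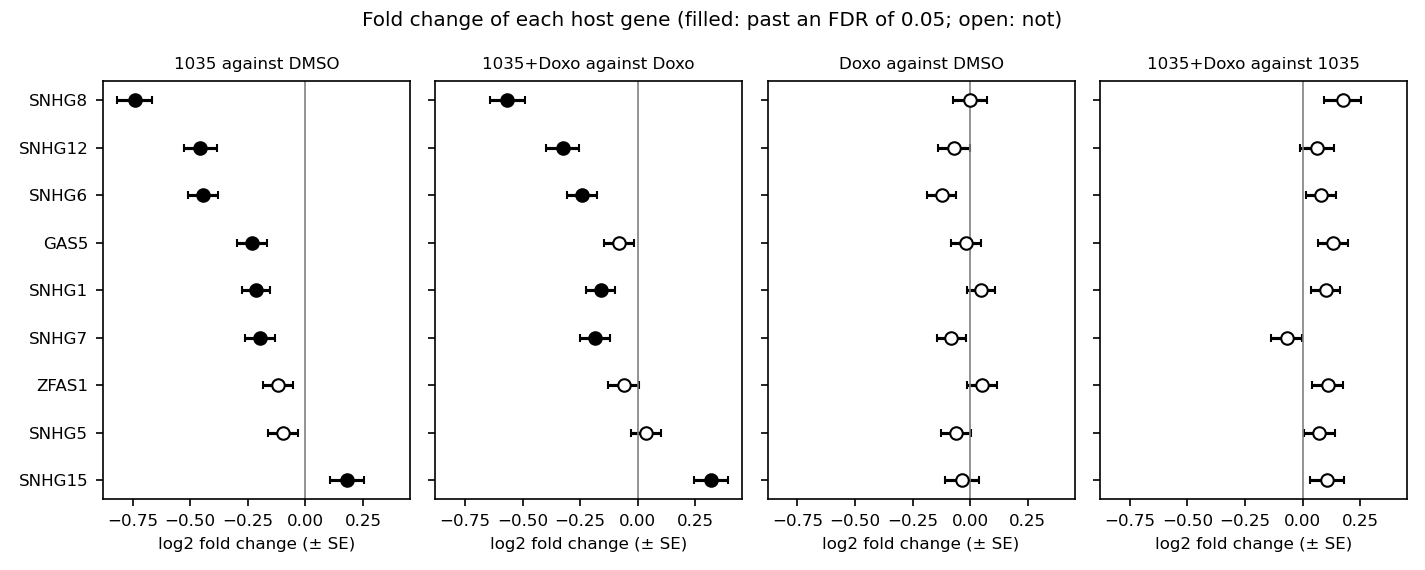
Log2 fold change ± SE (horizontal axis, linear) of each host gene in 4 comparisons; filled points passed an FDR of 0.05 in the edgeR quasi-likelihood test and open points did not. SNHG8 lay farthest to the left with 1035, at -0.74 against DMSO and -0.57 against Doxo, and no point was filled for doxorubicin.

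The comparison of 1035+Doxo with Doxo asks about 1035 in cells that also had doxorubicin. The 1035+Doxo cells had 36 h of treatment before doxorubicin, and none is given for the Doxo cells. Here 1035 and the time of handling thus cannot be told apart. SNHG8, SNHG12, SNHG6, SNHG7 and SNHG1 were lower in 1035+Doxo (5 of 9) and SNHG15 was higher (1 of 9), where 22% of all genes were called lower and 21.8% higher (43.8% in all). SNHG8 had 82.3 and 86.6 CPM in 1035+Doxo libraries, against 135.3 and 113.7 CPM in Doxo libraries. Those groups did not overlap, which was so for 69% of all genes, and SNHG8 fell by 32.4% (-0.57 ± 0.08, edgeR adjusted p = 1.04e-06). SNHG15 had 89.8 and 101.4 CPM in 1035+Doxo, against 83.1 and 69.3 CPM in Doxo. It rose by 24.7% (0.32 ± 0.07, edgeR adjusted p = 0.000537). SNHG12 had 88.9 and 104.4 CPM in 1035+Doxo and 129.2 and 112.2 CPM in Doxo, and fell by 20.2% (-0.33 ± 0.07, edgeR adjusted p = 0.000347). SNHG6 had 114.1 and 121.1 CPM, against 141.4 and 136.3 CPM in Doxo, and fell by 15.4% (-0.24 ± 0.06, edgeR adjusted p = 0.00197).

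SNHG7 stood at 87.5 and 84.3 CPM in 1035+Doxo, against 103.3 and 91.4 CPM in Doxo (-0.18 ± 0.07, edgeR adjusted p = 0.0207). SNHG1 overlapped, with 249.0 and 276.2 CPM in 1035+Doxo and 311.4 and 274.8 CPM in Doxo (-0.16 ± 0.06, edgeR adjusted p = 0.0325). GAS5 (-0.08, 95% interval -0.21 to 0.05), ZFAS1 (-0.06, -0.19 to 0.07) and SNHG5 (0.04, -0.09 to 0.17) did not pass.

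SNHG8 and SNHG15 passed this comparison under all 16 alternatives and the other calls hung on single libraries. Without 1035+Doxo replicate 1 SNHG8 was the only host still called lower: SNHG12 was at -0.21 (adjusted p 0.0601), SNHG6 at -0.19 (0.0695), SNHG7 at -0.21 (0.0598) and SNHG1 at -0.08 (0.440). SNHG7 and SNHG1 were also lost without Doxo replicate 1 (-0.09, adjusted p 0.379, and -0.07, 0.458), under upper quartile scaling (0.0868 and 0.136) and with library totals (0.0782 and 0.126). The SNHG7 call was lost further without 1035+Doxo replicate 2 (-0.15, 0.163) and with DESeq2 (0.0638), and the SNHG1 call without DMSO replicate 1 (0.0578) or 2 (0.0553), which are in the fit but not in the comparison, and with the 2 groups alone (0.0584). GAS5 was called lower without Doxo replicate 2 (-0.20, adjusted p 0.00636).

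Against DMSO, the 1035+Doxo cells had 4 hosts lower and 1 higher, where 24.7% of all genes were called lower and 24.5% higher (49.2% in all). SNHG8 fell by 32.5% (-0.57 ± 0.08, edgeR adjusted p = 8.25e-07), SNHG12 fell by 23.9%, SNHG6 fell by 22.3% and SNHG7 fell by 16.8%. These 4 passed under all 16 alternatives. SNHG15 rose by 21.8% (0.28 ± 0.07, edgeR adjusted p = 0.00147) and was not called without 1035+Doxo replicate 2 (0.20, adjusted p 0.0845). GAS5 (-0.10), SNHG1 (-0.11), SNHG5 (-0.02) and ZFAS1 (-0.01) did not pass, although the groups of GAS5 and SNHG1 did not overlap, which was so for 75.3% of all genes. SNHG1 passed when only the 2 groups were fitted (-0.11, edgeR adjusted p = 0.0244).

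Set against the 4 libraries without it, the 4 libraries given 1035 lay wholly below for SNHG6 (108.0 to 121.1 against 136.3 to 160.0 CPM), SNHG7 (84.3 to 90.8 against 91.4 to 104.2), SNHG8 (68.8 to 86.6 against 113.7 to 135.3) and SNHG12 (88.9 to 104.4 against 112.2 to 129.3). They lay wholly above for SNHG15 (88.1 to 101.4 against 69.3 to 83.1 CPM). The other 4 hosts overlapped. Of all genes, 24.7% lay wholly below and 24.5% wholly above in this way.

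Doxorubicin alone changed none of the 9 hosts past the test, where 1.33% of all genes were called (0.784% higher and 0.545% lower). No host had an unadjusted p under 0.05 in the edgeR test and DESeq2 called 0. Estimates against DMSO ran from -0.12 for SNHG6 (95% interval -0.25 to -0.00126; unadjusted p = 0.0547 in the edgeR test) to 0.05 for ZFAS1 (-0.08 to 0.18). SNHG6 was the only host whose Doxo and DMSO libraries did not overlap, which was so for 44.7% of all genes. GAS5 had 421.5 and 352.3 CPM in Doxo, against 391.8 and 392.5 CPM in DMSO. The Doxo replicates differed by more than the means of the groups did, and Doxo replicate 1, which was sequenced deepest, was the higher of the pair for all 9 hosts.

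Adding doxorubicin after 1035 likewise called 0 of 9 hosts in 1035+Doxo against 1035, where 0.496% of all genes were called (0.349% higher and 0.147% lower). SNHG8 alone had an unadjusted p under 0.05 (0.0402) and DESeq2 called 0. Estimates lay between -0.07 for SNHG7 and 0.17 for SNHG8 (95% interval 0.02 to 0.33; edgeR adjusted p = 0.708). SNHG8 had 82.3 and 86.6 CPM in 1035+Doxo, against 80.5 and 68.8 CPM in 1035. GAS5 had 359.9 and 372.9 CPM in 1035+Doxo and 347.7 and 320.4 CPM in 1035 (0.13, 95% interval 0.00349 to 0.26; edgeR adjusted p = 0.736). The groups of SNHG8, GAS5, SNHG1, SNHG15 and SNHG7 did not overlap, which was so for 35.3% of all genes.

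Whether the effect of 1035 differed with doxorubicin was tested as an interaction, the log2 fold change with doxorubicin minus that without. Since the Doxo cells had the shorter treatment, the time of handling enters this interaction too. It called 0 hosts (edgeR; 0.0184% of all genes were called), with 1 at an unadjusted p under 0.05 and 0 by DESeq2. The estimates were above 0 for all 9 hosts, between 0.01 for SNHG7 and 0.20 for SNHG6 (95% interval 0.03 to 0.38; unadjusted p = 0.0310 in the edgeR test, adjusted p = 0.952). All 9 estimates share the same libraries and so are not separate evidence. GAS5 (0.15, 95% interval -0.03 to 0.33) passed without Doxo replicate 1 (0.29, edgeR adjusted p = 0.0492).

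The products of these hosts could be followed for 6 of the 34 snoRNAs that RefSeq places in them. These were SNORD78 in GAS5 (matched by name and length), SNORD87 in SNHG6, SNORD99 in SNHG12, and SNORD12, SNORD12B and SNORD12C in ZFAS1 (matched by identifier). They had 22 to 148 reads per library. Reads of host pre-RNA and of mature snoRNA cannot be told apart in these counts. All 6 estimates were negative in 1035 against DMSO, and 5 of the 6 snoRNAs passed as lower, where 24.8% of all genes did. SNORD78 had 27 and 29 reads in the 1035 libraries, against 80 and 64 in the DMSO libraries, and fell by 1.12 on the log2 scale (SE 0.25, edgeR adjusted p = 0.000269). SNORD87 had 40 and 36 reads with 1035 and 86 and 85 with DMSO (-0.93 ± 0.22, edgeR adjusted p = 0.000496). Both were called under all 16 alternatives.

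The ZFAS1 snoRNAs fell with 1035 although ZFAS1 itself was not called: SNORD12C by 0.79, SNORD12 by 0.55 and SNORD12B by 0.49 on the log2 scale (edgeR adjusted p = 0.00221, 0.0188 and 0.00690). SNORD12C was lost without DMSO replicate 1 (-0.60, adjusted p 0.0753). SNORD12 was lost without DMSO replicate 1 (-0.45, 0.146) or 1035 replicate 2 (-0.46, 0.116) and with DESeq2 (0.143), and SNORD12B without 1035 replicate 1 (-0.43, 0.0730) and with DESeq2 (0.0881). SNORD99 missed the threshold (-0.43 ± 0.23, edgeR adjusted p = 0.128) and passed without 1035 replicate 2 (-0.70, adjusted p 0.0427). For every 100 reads on ZFAS1 its 3 snoRNAs had 13.3 and 13.1 reads in 1035+Doxo and 13.9 and 15.9 in 1035, against 18.7 and 16.8 in Doxo and 20.5 and 20.3 in DMSO. The 4 libraries given 1035 were thus below the 4 others in this ratio. SNORD87 per 100 SNHG6 reads was 3.0 and 3.07 in 1035+Doxo and 2.51 and 2.71 in 1035, against 3.6 and 2.37 in Doxo and 3.84 and 3.51 in DMSO, which overlapped. The difference between a snoRNA and its host was not tested.

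**Figure D4:**
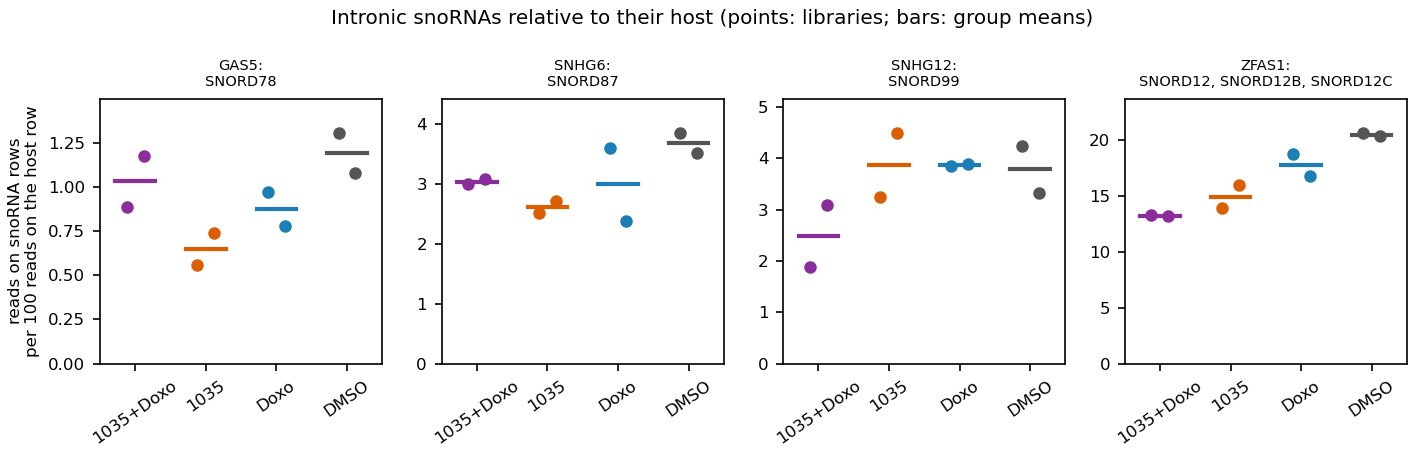
Reads on intronic snoRNAs per 100 reads on the host (vertical axes from 0, linear) in 1035+Doxo, 1035, Doxo and DMSO; points are libraries, bars group means (n = 2). For ZFAS1 the 4 libraries given 1035 lay at 13.1 to 15.9, below 16.8 to 20.5 in the 4 others, while for GAS5, SNHG6 and SNHG12 the libraries overlapped.

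With doxorubicin present, 4 of the 6 snoRNAs were lower in 1035+Doxo than in Doxo: SNORD99 (-0.96 ± 0.26, edgeR adjusted p = 0.00217), SNORD12C (-0.58), SNORD12 (-0.54) and SNORD12B (-0.43), where 22% of all genes were called lower. With library totals 3 of the 6 were lower. SNORD78 differed by 0.11 (95% interval -0.36 to 0.58), with 42 and 53 reads in 1035+Doxo and 73 and 34 in Doxo. Against 1035 it was at 0.81 ± 0.27 in 1035+Doxo (edgeR adjusted p = 0.320). Interaction estimates of the 6 ran from -0.53 for SNORD99 to 1.23 for SNORD78 (edgeR unadjusted p = 0.00114, adjusted p = 0.626). Without Doxo replicate 1 that of SNORD78 was 1.58. Neither doxorubicin alone, doxorubicin after 1035 nor the interaction called any of the 6 (1.33%, 0.496% and 0.0184% of all genes). Of the 4 calls 1 was left without Doxo replicate 1, without either 1035+Doxo library or with DESeq2; SNORD99 was lost without 1035+Doxo replicate 1 (-0.54, adjusted p 0.151), where its counts were 22 and 39 in 1035+Doxo and 89 and 54 in Doxo. Against DMSO, 5 of the 6 were lower in 1035+Doxo, with 3 left without DMSO replicate 1 or either 1035+Doxo replicate, and 2 with DESeq2. Over all 218 tested snoRNA and Cajal body RNA genes, 36 were lower and 4 higher in 1035 against DMSO (median -0.26), but 18, 23 and 22 were lower without DMSO replicate 1, 1035 replicate 1 and 1035 replicate 2, and 12 with DESeq2. Of the 218, 18.3% were called in 1035 against DMSO, where 49% of all genes were (24.8% lower and 24.2% higher). In 1035+Doxo against DMSO 24.7% of all genes were called lower. In 1035+Doxo against Doxo 17 of the 218 were lower and 9 higher (median -0.04), where 22% of all genes were lower and 21.8% higher. There 7 were lower without Doxo replicate 1 or without 1035+Doxo replicate 1 and 5 with DESeq2, and with library totals 15 were lower and 12 higher.

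GAS5, SNHG1 and ZFAS1 begin within 1000 bases of a protein-coding gene on the opposite strand, and each of these head-to-head neighbours passed the test with 1035. Of all genes, 49% passed in 1035 against DMSO. ZBTB37, a zinc finger and BTB domain protein beside GAS5, had 50.3 and 47.7 CPM in 1035, against 84.3 and 82.6 CPM in DMSO. It fell by 41.3% (-0.77 ± 0.07, edgeR adjusted p = 8.93e-12), while GAS5 fell by 14.8%. SLC3A2, the heavy chain of several amino acid transporters beside SNHG1, had 299.9 and 317.9 CPM in 1035 and 450.0 and 419.2 CPM in DMSO, and fell by 28.9% (-0.49 ± 0.06, edgeR adjusted p = 3.09e-09). ZNFX1, an NFX1-type zinc finger helicase beside ZFAS1, had 151.1 and 151.8 CPM in 1035, against 108.6 and 112.2 CPM in DMSO. It rose by 37.2% (0.46 ± 0.06, edgeR adjusted p = 2.66e-08), where ZFAS1 had -0.12.

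The neighbours moved likewise in 1035+Doxo against Doxo: ZBTB37 by -0.79, SLC3A2 by -0.41 and ZNFX1 by 0.34, and all 3 passed under every alternative in both comparisons. Doxorubicin alone called none of the 3. Differences between a host and its neighbour were not tested. Other hosts overlap a gene on the opposite strand, and because the sources used here do not say if counting used the strand, their reads may be shared. FAM69B, which overlaps SNHG7, was not called with 1035 (-0.03). TRNAU1AP, which overlaps SNHG12, was called lower (-0.27 ± 0.10, edgeR adjusted p = 0.0283) but not without DMSO replicate 2 (-0.20, 0.230) or 1035 replicate 2 (-0.19, 0.229), with DESeq2 (0.110), under upper quartile scaling (0.0897), with library totals (0.107) or with genes of a mean count of at least 50 (0.0586).

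**Figure D5:**
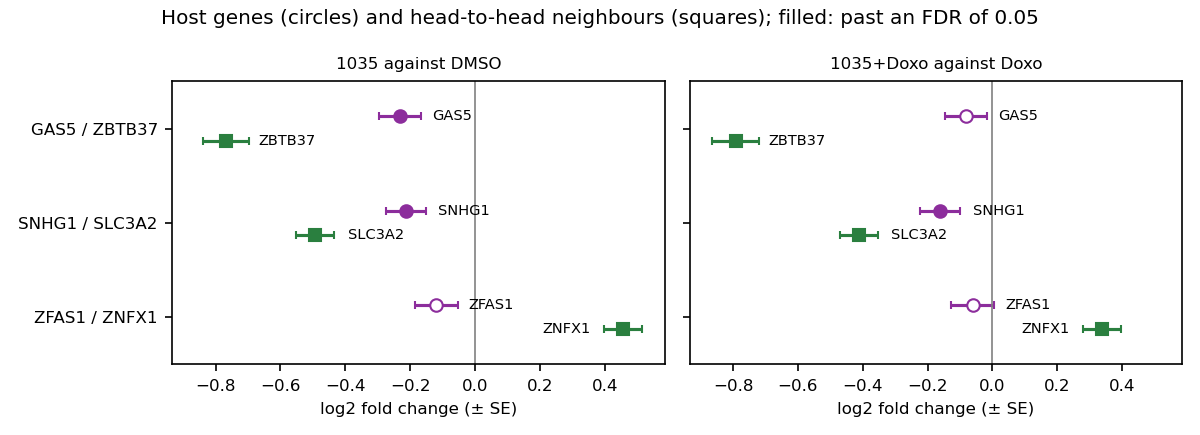
Log2 fold change ± SE (horizontal axes, linear) of 3 host genes (circles) and the genes that start beside them on the opposite strand (squares), in 1035 against DMSO and in 1035+Doxo against Doxo; filled symbols passed an FDR of 0.05. ZBTB37 and SLC3A2 lay left of their hosts GAS5 and SNHG1, and ZNFX1 lay at 0.46 and 0.34, right of ZFAS1.

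Of 17 other non-coding hosts named, 8 were tested, of which 4 fell and 1 rose in 1035 against DMSO (median -0.28). Across all genes 24.8% were called lower there and 24.2% higher. DANCR fell by 0.90 on the log2 scale (SE 0.07), to 48.7 ± 4.77 CPM in 1035, against 90.7 ± 0.0693 CPM in DMSO (SD, n = 2 each). SNHG10 was at -0.57 ± 0.10 and SNHG3 at -0.33 ± 0.06, while SNHG14, which carries imprinted arrays of C/D box snoRNAs, rose by 0.38. In 1035+Doxo against Doxo 3 of the 8 were lower and 1 higher, where 22% of all genes were called lower and 21.8% higher. Of 53 protein-coding hosts 29 fell and 1 rose with 1035 (median -0.15), with 19 lower and 1 higher in 1035+Doxo against Doxo. EIF4G2, a translation initiation factor, was at 620.0 ± 6.93 CPM in 1035, against 1105 ± 29.6 CPM in DMSO (-0.83 ± 0.06), and RCC1, the exchange factor of the GTPase RAN, was at -0.83 ± 0.06. EEF2, the elongation factor that moves the ribosome along, was the host called higher (0.26 ± 0.06). Scaling moved this split as it moved all genes, whose median in 1035 against DMSO was 0.08 with library totals and 0.01 with TMM, with 3239 lower and 4677 higher against 4049 lower and 3944 higher. With library totals 23 of the protein-coding hosts were lower and 4 higher in 1035 against DMSO, and 17 lower and 8 higher in 1035+Doxo against Doxo. Of 42 ribosomal protein genes that are not counted among the hosts, 9 were lower and 5 higher (median -0.07), and with library totals 2 were lower and 11 higher (median 0.00130, below the 0.08 of all genes). Without DMSO replicate 1 that list had 2 lower and 2 higher, and 3 were lower without 1035 replicate 2. In 1035+Doxo against Doxo 3 were lower and 8 higher, and with library totals 2 and 10.

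In 1035 against DMSO, 24.8% of all genes were called lower and 24.2% higher. Of 20 proteins of snoRNA-protein particles and their assembly 9 fell and 3 rose (median -0.13). NOP56 and NOP58, core proteins of C/D box particles, were at -0.54 and -0.33, and DKC1, the pseudouridine synthase of H/ACA box particles, at -0.49. NOP10, another H/ACA box core protein, rose by 0.31 and NUFIP1, a C/D box assembly factor, by 0.38. Among 20 NMD factors 9 fell and 1 rose (median -0.15), and with library totals 6 were lower and 3 higher. UPF3A was at 10.8 ± 0.978 CPM in 1035 and 20.4 ± 0.432 CPM in DMSO (-0.93 ± 0.12), and SMG9 was at -0.66 ± 0.09. Among 17 genes with coding RNAs known to be degraded by NMD 13 fell and 1 rose (median -0.23), with SRSF6 at -0.64, SRSF7 at -0.62 and GADD45B at 0.67. With library totals 9 of these 17 genes were lower. Counts per gene do not separate the degraded forms of an RNA from its other forms, so they do not measure NMD.

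Of 21 RNA decay and trimming enzymes 14 fell and 1 rose (median -0.26). Of all genes, 24.8% were called lower in 1035 against DMSO and 24.2% higher. DIS3L, a nuclease of the cytoplasmic exosome, was at 52.9 ± 1.79 CPM in 1035 and 114 ± 1.84 CPM in DMSO (-1.11 ± 0.07), and EXOSC8, a subunit of the exosome ring, at -0.66 ± 0.07. XRN1, the main cytoplasmic nuclease that degrades RNA from its 5′ end, was the gene called higher (0.28 ± 0.06), but not without 1035 replicate 1 (0.17, adjusted p 0.0539). Of 17 genes that control translation of TOP mRNAs 7 fell and 4 rose (median 0.03). TSC1, an inhibitor upstream of mTOR, rose by 0.74, the mTOR inhibitor DEPTOR by 1.37 and the kinase gene RPS6KB2 by 0.74. Among those that fell, MLST8, an mTOR complex subunit, was at -0.81, EIF4EBP1 at -0.63 and AKT1 at -0.28. With library totals the split was 6 lower and 6 higher. Of 28 genes of ribosomal RNA transcription and processing 22 fell and 1 rose (median -0.29), with UBTF, a factor of RNA polymerase I, at -0.48 ± 0.06 and UTP20 at -0.70 ± 0.06.

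Likeness of the 8-library profiles was measured as the root mean square difference of log2(CPM + 0.5) after each gene was centred on its own mean, over 11469 genes with a mean of at least 5 CPM. GAS5 was nearest to NUPL2 (0.0290), MASTL and FAM135A, and SNHG1 was number 28 in its list (0.0529); GAS5 was number 44 in the list of SNHG1. SNHG6 was number 119 in the list of SNHG12 (0.0741), and SNHG6 and SNHG15 lay 0.307 apart. The genes nearest to SNHG8 were SPPL2A (0.0586), FUT11 and ZBED5, and those nearest to SNHG15 were MPV17 (0.0351), ARRDC1 and DYNC1LI2. SNHG7 was nearest to MSL2 (0.0156), SNHG5 to ABHD16A (0.0215), SNHG6 to KIF13A (0.0332), SNHG1 to TAF2 (0.0335), SNHG12 to NARFL (0.0394) and ZFAS1 to PRMT10 (0.0322). Since all 8 libraries enter each profile, these are descriptions without a test.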

How the data were processed

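Total RNA was isolated with a Versagene kit, depleted of ribosomal RNA (Ribo-Zero Gold), made into stranded TruSeq libraries and read as single reads of 50 bases, per the labels' protocols. The submitters' processing notes name Novoalign 2.08.01, DESeq2 1.4.5 and the build hg19. Not given in the sources used here were the counter, the annotation and the strand setting. The authors deposited 4 tables, 1 per pair of groups, with raw read counts per gene, per the file headers. The deposited FPKM values served only to derive each gene's length. The authors' deposited log2 fold changes and adjusted p-values, per the file headers, were not used.

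The tables were joined by gene identifier: 132880 counts held by 2 tables were all equal, and of 17849 genes 16608 had counts in all 8 libraries. Groups came from the sample titles. The design text calls the 2 samples of each group independent, and p-values measure the spread between them. After filterByExpr, 16320 genes were fitted together with edgeR 4.0.16 (R 4.3.3; TMM, robust quasi-likelihood F-test, 4 group means, two-sided, 4 residual degrees of freedom, common biological coefficient of variation 4.57%) and adjusted by Benjamini-Hochberg over all genes at an FDR of 0.05. SE is the absolute log2 fold change divided by the square root of F, and 95% intervals are normal intervals from it. Such intervals are narrower than the F-test implies, so some exclude 0 where the unadjusted p of that test is above 0.05. The fit was also run on simulated counts with 200 changed genes, and the outcome of that run is not given here. DESeq2 1.42.0, other scalings, filters, a replicate block and left-out libraries were alternatives.

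SnoRNAs were assigned to hosts by their RefSeq and GENCODE v29 location, in place of a list by name in which some entries lay elsewhere; neighbours came from GENCODE v29, and promoters and their sequences from RefSeq (GRCh38.p14). All 9 hosts are named, and of every other list up to 3 genes with the smallest p in each direction. The members and lists were chosen with earlier results of these data known.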

Additional observations from a re-analysis of the deposited data

How the results depend on the processing

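Across all comparisons the values of the 9 hosts kept their side of the threshold in 824 of their gene-by-setting values, lost it in 27 and gained it in 4, and no called value changed sign. The number called higher in 1035 against DMSO was 1, and 0 with DESeq2; leaving out each library in turn gave 0 to 1. The number lower in 1035+Doxo against Doxo was 5, and 3 under upper quartile scaling and with library totals; leaving out each library gave 1 to 6. Leaving out each library gave 0 to 1 higher in 1035+Doxo against DMSO (1 in the full fit) and 0 to 1 higher in the interaction (0 in the full fit). The 6 hosts lower in 1035 against DMSO were 5 to 6 without each library, and the 4 lower in 1035+Doxo against DMSO stayed at 4. The share of reads on the 9 hosts was 0.0129 percentage points lower with 1035, and 0.00987 to 0.0161 lower without each library. The cause of these changes was not tested.

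Replicate numbers did not pair the samples, with correlations of deviations between -0.082 and 0.080 over 12067 genes. With the replicate number as a block, 6 hosts were lower and 1 higher in 1035 against DMSO, 5 and 1 in 1035+Doxo against Doxo, 4 and 1 in 1035+Doxo against DMSO, and 0 in the other comparisons, as without it. Leaving out a library leaves its group with 1 sample, which is then assumed to vary like the other groups. The low snoRNA counts (22 to 148 reads) limit the precision of their values. Whether 1035 stayed in the medium was not given, and the counting of overlapping strands is not known.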
